A study of Mus musculus with 6 samples.

Results

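The nuclear genes of the mitochondrial respiratory chain and of the ATP synthase were followed as a group of 102 genes among 18193 measured genes. They were taken by name: every gene whose symbol begins with Nduf (complex I), Sdh (complex II), Uqcr (complex III), Cox followed by a digit (complex IV) or Atp5 (ATP synthase) and that had a probe set listing no other gene. Together they had 203 probe sets, and the probe set brightest on average across the 6 arrays stood for the gene. By role the 102 genes comprised 74 subunits made in most tissues, 20 assembly factors and 8 isoforms known from muscle, testis, lung or low oxygen. The prefix places Ndufa4 under complex I, although its protein is known as a subunit of complex IV. Cyc1 and Cycs, the cytochromes c1 and c, escape the name rule and are given below with the other partners of the chain. The mitochondrially encoded subunits were not analysed here.

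The arrays were Affymetrix expression arrays of mouse embryonic fibroblasts (MEF), mesenchymal cells cultured from dissociated embryos. There were 3 arrays of cells labelled as lacking both Abl and Arg, the non-receptor tyrosine kinases encoded by Abl1 and Abl2, and 3 arrays of wild-type cells. All cells were labelled as C57BL/6, from embryos at 14 days of gestation with males and females pooled, and were grown in Dulbecco's medium with 10% serum. Whether the cells were primary or a line, and whether the knockout cells were a clone, is not given in the sources used here. No label says that arrays within a group stem from different cultures, and the p-values therefore cover array-to-array spread alone, perhaps of a technical kind.

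Abl1 and Abl2 RNA was not clearly lower on the arrays labelled knockout, which are called knockout arrays below after that label. The brightest Abl1 probe set had signals of 170 ± 8.22 on them and 185 ± 4.46 on the wild-type arrays, with a log2 difference of -0.11 and an adjusted p of 0.107, and the brightest Abl2 probe set had 254 ± 11.9 on the knockout arrays and 256 ± 9.30 on the wild-type arrays, with a log2 difference of -0.01 and an adjusted p of 0.888 (SD, n = 3 each; limma over all probe sets). Where these probes lie relative to any deleted exons is not known here, so they may check nothing. Of 12 fibroblast markers 8 were higher and 2 lower on the knockout arrays: Vim, Fn1, Col1a1 and Prrx1 had signals over 100 in both groups, Col1a2 averaged 9.71 on the knockout arrays against 2284 on the wild-type arrays and Col3a1 14.9 on the knockout arrays against 1934 on the wild-type arrays, Pdgfra averaged 1789 on the knockout arrays against 9.99 on the wild-type arrays, and Thy1 and Lum stayed under 10 in both groups. Differences of at least 2-fold were found for 6 higher and 2 lower fibroblast markers. Their summed signal was 19527 to 20519 on the knockout arrays and 12086 to 12782 on the wild-type arrays. Of all genes, 24.3% were higher and 35.5% lower. Of the neural marker list 1 gene was higher and 2 lower, with Sox2 at 236 on the knockout arrays against 3.67 on the wild-type arrays. The lower ones were Tubb3, at 8.14 on the knockout arrays against 52.9 on the wild-type arrays, and Map2, at 30.3 on the knockout arrays against 101 on the wild-type arrays. The summed signal of the list was 224.8 to 323 on the knockout arrays and 160.1 to 182 on the wild-type arrays. The summed signal of 6 macrophage and leukocyte markers was 147 to 159.8 on the knockout arrays and 71.8 to 75.8 on the wild-type arrays, with 2 higher: Lyz2 averaged 72.4 on the knockout arrays against 9.11 on the wild-type arrays, and Cd68 41.0 on the knockout arrays against 19.3 on the wild-type arrays. Ptprc, Tyrobp and Adgre1 were under 5 in both groups. Of 5 epithelial markers 3 were lower, with sums of 37.6 to 44.0 on the knockout arrays and 73.4 to 90.3 on the wild-type arrays. None of 4 endothelial markers passed, with sums of 29.9 to 34.4 on the knockout arrays and 31.5 to 38.8 on the wild-type arrays. Of 3 erythroid markers 1 was higher, with sums of 19.4 to 21.7 on the knockout arrays and 18.0 to 19.97 on the wild-type arrays. In RNA of a whole culture, fewer cells of a type and less RNA per cell cannot be told apart. Beta-actin signal at the 3' end over that at the 5' end, a sign of RNA quality, had a log2 ratio of 0.36 ± 0.01 on the knockout arrays and 0.47 ± 0.03 on the wild-type arrays (SD, n = 3 each). The same ratio for Gapdh was -0.17 ± 0.04 on the knockout arrays and -0.15 ± 0.04 on the wild-type arrays (SD, n = 3 each). The part of these differences in the results below was not tested.

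The respiratory chain sits in the inner mitochondrial membrane. Complex I takes electrons from NADH and complex II takes them from succinate; both pass them to coenzyme Q, complex III passes them on to cytochrome c, and complex IV gives them to oxygen. Complexes I, III and IV pump protons as they work, and the ATP synthase lets the protons back through its membrane ring and makes ATP. Most subunits are encoded in the nucleus and imported, and dedicated assembly factors insert flavins, haem, copper and iron-sulfur clusters. The promoters of many of these genes are known to carry sites for NRF1 and for the ETS-family factor GABP.

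Promoters are shown for the genes on which the contrast within complexes II and III turns, and for Cox7a1, which had the largest difference. Each line gives the 250 bases before the annotated start from RefSeq (GRCm38.p6), 5' to 3' in the direction of the gene. Capitals mark matches on either strand to an NRF1 core (GCGCANGC, other strand GCNTGCGC) or an ETS core (CCGGAAG, other strand CTTCCGG). The Sdha window, chr13:74350241-74350490 on the minus strand, held 3 NRF1 cores and the Sdhb window, chr4:140961021-140961270 on the plus strand, held 1. The Uqcr11 window, chr10:80406822-80407071 on the minus strand, held 1 ETS core. The Uqcr10 window, chr11:4704345-4704594 on the minus strand, and the Cox7a1 window, chr7:30183921-30184170 on the plus strand, held no match, which says only that these letters are not in those windows.
Sdha: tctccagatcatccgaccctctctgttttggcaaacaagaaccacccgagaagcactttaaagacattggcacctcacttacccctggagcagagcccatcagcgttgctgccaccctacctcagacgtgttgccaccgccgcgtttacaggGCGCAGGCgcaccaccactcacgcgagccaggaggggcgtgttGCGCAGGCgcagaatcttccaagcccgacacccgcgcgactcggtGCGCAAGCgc
Sdhb: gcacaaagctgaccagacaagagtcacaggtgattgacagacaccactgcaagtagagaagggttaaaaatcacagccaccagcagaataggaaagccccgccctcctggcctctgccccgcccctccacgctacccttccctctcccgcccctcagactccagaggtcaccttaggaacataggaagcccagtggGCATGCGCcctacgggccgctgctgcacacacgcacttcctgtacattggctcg
Uqcr11: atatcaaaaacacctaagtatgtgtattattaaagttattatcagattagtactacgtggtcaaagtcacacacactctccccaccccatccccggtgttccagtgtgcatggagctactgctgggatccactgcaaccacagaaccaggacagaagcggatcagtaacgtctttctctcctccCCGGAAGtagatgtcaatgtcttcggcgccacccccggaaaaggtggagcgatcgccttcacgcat
Uqcr10: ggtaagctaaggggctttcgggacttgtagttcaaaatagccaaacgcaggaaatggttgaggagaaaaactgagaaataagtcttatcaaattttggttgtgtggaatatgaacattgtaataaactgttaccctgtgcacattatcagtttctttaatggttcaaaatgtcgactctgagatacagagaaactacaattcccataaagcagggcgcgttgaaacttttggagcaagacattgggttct
Cox7a1: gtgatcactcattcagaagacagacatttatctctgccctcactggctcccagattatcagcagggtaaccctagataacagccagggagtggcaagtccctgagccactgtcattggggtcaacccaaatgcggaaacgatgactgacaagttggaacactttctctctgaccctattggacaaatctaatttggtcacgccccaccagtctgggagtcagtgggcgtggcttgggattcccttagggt

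Windows were matched by symbol for 84 of the 102 genes. The NRF1 core stood in 19 of the 84 (22.6%), against 9.38% of all 27025 genes with a window, and the ETS core also in 19 (22.6%), against 7.83% of all genes. Among genes of the chain whose RNA was higher on the knockout arrays, 6 of 21 held an NRF1 core (28.6%), and among those lower, 10 of 51 did (19.6%). The ETS core stood in 7 of 21 higher genes (33.3%) and in 8 of 51 lower genes (15.7%). Of the 12 genes that did not pass, 3 held an NRF1 core (25%) and 4 an ETS core (33.3%). Higher and lower are the calls in the deposited signals, which depend on the scaling. These counts are descriptions of letters in windows, not of binding, and the difference between the higher and lower genes was not tested.

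RNA of the chain was mostly lower on the knockout arrays in the deposited signals, a direction that turned under scaling on the poly-A spike controls, bacterial RNAs added before labelling. Of the 102 genes, 65 were lower (63.7%), 24 were higher (23.5%) and 13 did not pass an adjusted p of 0.05 (limma, Benjamini-Hochberg over all genes). The 2 groups of arrays are far apart in general, and the counts for each complex below stand against the same background: 59.8% of all genes passed, 35.5% lower and 24.3% higher. Groups did not overlap for 65 chain genes with knockout below and 26 with knockout above, where all genes gave 39.0% and 25.7%. The differences were moderate. At least 2-fold differences were found for 7 lower chain genes, against 8.85% of all genes, and for 1 higher chain gene, against 7.06%. The median difference, on the log2(signal + 16) scale and as knockout minus wild type, was -0.26 over the chain and -0.03 over all genes.

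Chain genes are brighter than most, so the same counts were taken among the 9442 genes with a mean signal of at least 50 in the higher group, of which 96 were chain genes. There 63 chain genes were lower (65.6%) and 23 higher (23.96%), against 48.1% and 37.7% of all such genes, of which 85.8% passed in either direction. Non-overlapping groups were found for 64 chain genes with knockout below and 25 above, where all such genes gave 49.6% and 38.9%. Changes of at least 2-fold were found in 7 lower and 1 higher chain genes, against 16.2% lower and 12.7% higher of all such genes. The median difference was -0.34 for the chain and -0.11 for all such genes, and the median absolute difference 0.38 for the chain and 0.59 for all. The 6 chain genes under a signal of 50 in both groups were Ndufb4, Ndufa4l2, Cox4i2, Cox8b, Cox7b2 and Cox6b2, and little can be read from their single-gene probe sets. The share of lower genes was above that of all such genes in the deposited signals. It was below it under poly-A spike scaling, with 13.5% of the chain genes and 25.1% of all such genes lower. The share of higher genes was smaller there too, with 46.9% of the chain genes and 56.99% of all such genes higher. The chain's median stayed below that of all such genes under that scaling, at 0.17 against 0.37. Neither the shares nor the sizes were tested against each other, and the chain genes were not matched to others on brightness within this set.

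**Figure D1:**
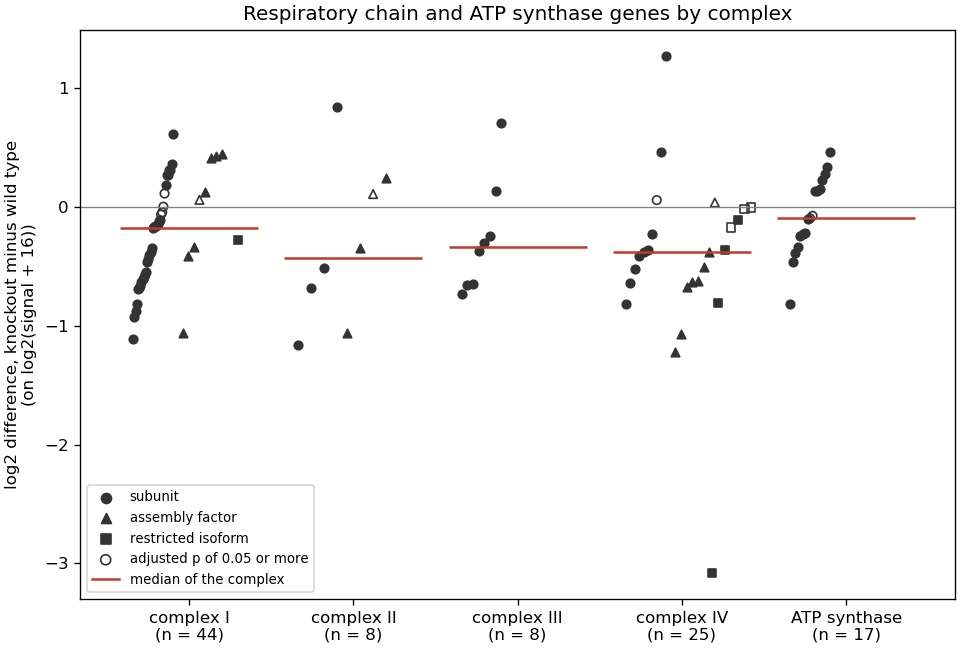
Each point is 1 gene, placed by complex on the horizontal axis and by its difference (knockout minus wild type, log2(signal + 16) scale) on the vertical axis; shapes give the role, open symbols did not pass, and red bars are medians (-0.18 for complex I, -0.43 for II, -0.34 for III, -0.38 for IV, -0.10 for the ATP synthase, all above 0 under poly-A spike scaling). Every complex holds points on both sides of 0, and Cox7a1 lies apart at -3.08.

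Complex II, succinate dehydrogenase, was split between its catalytic subunit and the other 3. Sdha, the flavoprotein that oxidises succinate, had signals of 2468, 2491 and 2422 on the knockout arrays, against 1357, 1390.4 and 1344 on the wild-type arrays. All 3 knockout values were above the wild-type values. The log2 difference was 0.84 ± 0.04 (SE, n = 3 each; adjusted p = 5.05e-10). Sdhb, the iron-sulfur subunit that carries electrons away from the flavin, had signals of 564, 572 and 599 on the knockout arrays, against 1275, 1325 and 1332 on the wild-type arrays. Here the knockout arrays lay below without overlap, at 44.1% of the wild-type mean, with a difference of -1.16 ± 0.04 (SE, n = 3 each; adjusted p = 6.54e-11). The membrane anchors Sdhc and Sdhd, which bind coenzyme Q, went the way of Sdhb. Sdhd signals were 613, 541 and 593 on the knockout arrays, against 910.0, 983 and 937 on the wild-type arrays, with a difference of -0.68 ± 0.05 (SE, n = 3 each; adjusted p = 9.88e-08); under poly-A spike scaling it was -0.18 and did not pass. Sdhc averaged 341 ± 20.1 on the knockout arrays and 493 ± 16.1 on the wild-type arrays (SD, n = 3 each), a difference of -0.51 ± 0.05 (SE, n = 3 each; adjusted p = 1.37e-06); under poly-A spike scaling it was -0.014 and did not pass. A second Sdha probe set of high signal gave the same direction, with 1330.2 on the knockout arrays and 824 on the wild-type arrays and a difference of 0.68.

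The assembly factors of complex II were split as well, in the deposited signals. Sdhaf4, which binds the flavinated Sdha before it joins Sdhb, had signals of 558, 575 and 621 on the knockout arrays, against 470.3, 511 and 494 on the wild-type arrays. Its groups did not overlap, and the knockout arrays were higher by 0.24 ± 0.05 (SE, n = 3 each; adjusted p = 0.000976), a direction lost under scaling on hybridization spikes. Sdhaf3, which helps to mature the iron-sulfur clusters of Sdhb, had 46.5, 46.8 and 52.8 on the knockout arrays, against 121, 121 and 115 on the wild-type arrays. The knockout arrays were lower for it, with -1.06 ± 0.07 (SE, n = 3 each; adjusted p = 3.79e-08). Sdhaf1, another factor for the clusters of Sdhb, differed by -0.35 ± 0.06 (SE, n = 3 each; adjusted p = 0.00024), which turned to 0.13 under poly-A spike scaling. Sdhaf2, which adds the flavin to Sdha, averaged 423 ± 22.7 on the knockout arrays and 391 ± 8.78 on the wild-type arrays (SD, n = 3 each) and did not pass (difference 0.11, adjusted p = 0.0684). A second bright probe set of Sdhaf2 averaged 143 on the knockout arrays and 167 on the wild-type arrays and was called lower, with -0.20. With 8 genes in all, complex II had 5 lower and 2 higher, a median of -0.43, against 0.06 under poly-A spike scaling. Sdha stayed higher and Sdhb lower, each past the threshold, under all 19 alternatives that were run.

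**Figure D2:**
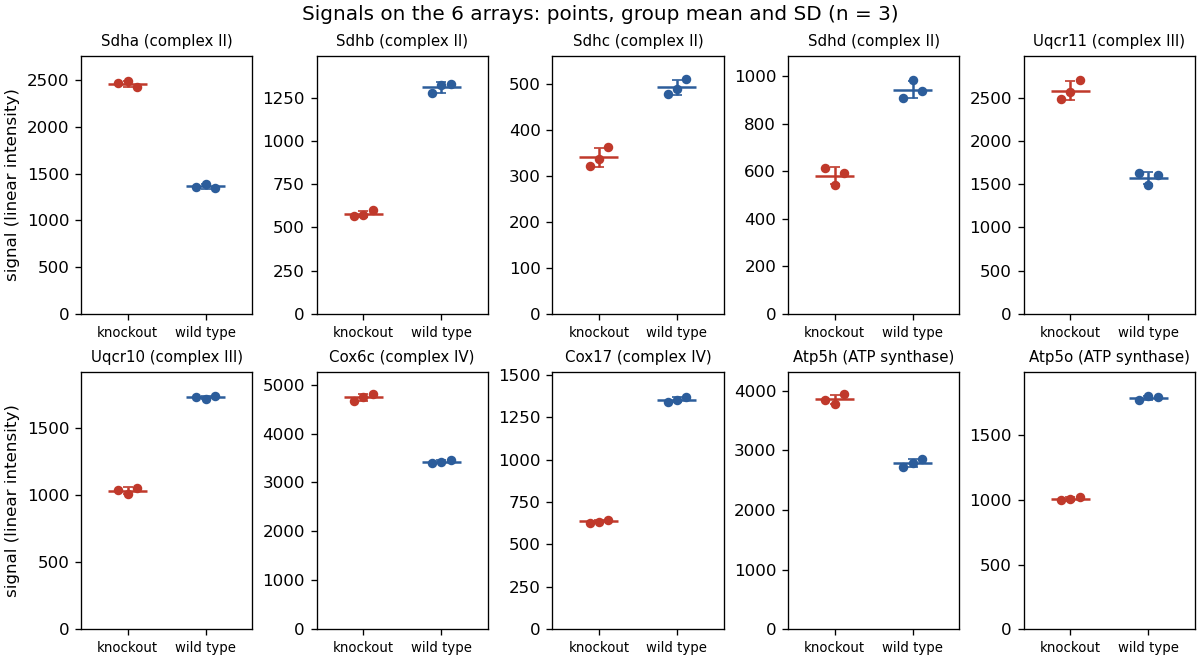
Deposited linear signals of 10 genes on the 3 knockout arrays (red, left) and 3 wild-type arrays (blue, right), with the group mean and SD; each panel has its own vertical axis from 0. Sdha, Uqcr11, Cox6c and Atp5h lie higher on the knockout arrays, and Sdhb, Sdhc, Sdhd, Uqcr10, Cox17 and Atp5o lie lower, with no overlap in any panel.

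In complex III all 8 genes passed, 6 of them lower and 2 higher, with a median of -0.34, against 0.17 when scaled on the poly-A spikes. All 8 are bright, and 85.8% of all genes with a signal of at least 50 passed, so that all passed is near the background. Uqcr10, a small subunit of the membrane part, had signals of 1038, 1007 and 1053 on the knockout arrays, against 1731, 1711 and 1735 on the wild-type arrays. The knockout arrays lay well below the others. Its difference was -0.73 ± 0.04 (SE, n = 3 each; adjusted p = 2.02e-09), and its other probe sets gave -1.61 and -1.29; under poly-A spike scaling it was -0.22 and did not pass. Uqcrh, the hinge protein by which cytochrome c1 meets cytochrome c, had 1592, 1684 and 1695 on the knockout arrays, against 2389.9, 2566 and 2914 on the wild-type arrays. It too was lower without overlap, with -0.65 ± 0.06 (SE, n = 3 each; adjusted p = 1.12e-06), and did not pass under poly-A spike scaling (-0.14) or with chromosomes centred (-0.0073). Uqcrc1, a core protein on the matrix side, had 1158, 1123 and 1185 on the knockout arrays, against 1827, 1804 and 1821 on the wild-type arrays. Its difference was -0.65 ± 0.04 (SE, n = 3 each; adjusted p = 7.8e-09), and -0.13 under poly-A spike scaling, where it did not pass. The other core protein, Uqcrc2, differed by -0.37, the Rieske iron-sulfur protein Uqcrfs1 by -0.30 and the small subunit Uqcrq by -0.24, all past the threshold; under poly-A spike scaling these turned to 0.14, 0.21 and 0.27.

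Uqcr11 and Uqcrb went the other way in complex III. Uqcr11, another of its small subunits, had signals of 2478, 2562 and 2699 on the knockout arrays, against 1628, 1493 and 1599 on the wild-type arrays. Every knockout array was above every wild-type array, with a difference of 0.71 ± 0.05 (SE, n = 3 each; adjusted p = 2.76e-08). Uqcrb, which lies near the coenzyme Q site, had 6733, 6662 and 6212 on the knockout arrays, against 5974, 5981 and 5883 on the wild-type arrays. The groups did not overlap, but the difference was small at 0.14 ± 0.04 (SE, n = 3 each; adjusted p = 0.0166), did not pass when arrays were centred on their median or when knockout replicate 1 or 2 was left out, and turned to -0.13 under hybridization spike scaling and to -0.28 when chromosomes were centred.

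Complex IV, cytochrome c oxidase, had the lowest share of higher genes in the deposited signals: of its 25 genes 18 were lower, 2 higher and 5 did not pass, with a median of -0.38, against 0.03 under poly-A spike scaling. None of its assembly factors or of its isoforms known from muscle, testis or lung was higher. Among general subunits 20% were higher, the same share as in complex I. Of its 10 general subunits 7 were lower. Cox7a2l, known for joining complexes III and IV into supercomplexes, differed by -0.82, Cox7a2 by -0.64, the regulatory subunit Cox4i1 by -0.52, Cox5a by -0.38, Cox6b1 by -0.37 and Cox5b by -0.23. Of these only Cox7a2l kept its call under poly-A spike scaling (-0.30). Cox7a2 (-0.13) and Cox4i1 (-0.006) did not pass there, and Cox5a, Cox6b1 and Cox5b turned to 0.14, 0.15 and 0.29 without passing. Cox6a1 averaged 8479.9 ± 202 on the knockout arrays and 8146 ± 156 on the wild-type arrays (SD, n = 3 each) and did not pass, while another bright probe set was called lower, with -0.11. Cox6c, a small membrane subunit, was called higher, with 4667, 4743 and 4804 on the knockout arrays, against 3398, 3427 and 3455 on the wild-type arrays. Its knockout values were all higher, by 0.47 ± 0.04 (SE, n = 3 each; adjusted p = 1.77e-07). A second bright probe set of Cox6c averaged 863 on the knockout arrays and 925 on the wild-type arrays, a difference of -0.11 that did not pass. Cox7c had a difference of 1.27 from a probe set of low signal, 66.0 ± 6.95 on the knockout arrays and 18.0 ± 2.55 on the wild-type arrays (SD, n = 3 each), and that probe set may read RNA of other genes too, as its name ending in s marks.

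Of the 8 assembly factors of complex IV, 7 were lower and 0 higher in the deposited signals, with a median of -0.63. Under poly-A spike scaling 2 were lower and 1 higher, with a median of -0.13, which stayed below 0 where that of the general subunits was 0.15. Cox17, the copper chaperone that delivers copper to the oxidase, had signals of 628, 633 and 647 on the knockout arrays, against 1340.2, 1351 and 1369 on the wild-type arrays. The knockout values were at 47.0% of the wild-type mean, a difference of -1.07 ± 0.04 (SE, n = 3 each; adjusted p = 5.45e-11). Cox16, a factor for the copper-bearing subunit, had 168, 195 and 175 on the knockout arrays, against 445, 446 and 429.5 on the wild-type arrays. It was lower by a similar amount on the log scale, -1.22 ± 0.06 (SE, n = 3 each; adjusted p = 8.34e-10). Both rest on probe sets whose names end in s or a; their other probe sets had signals under 10 and gave 0.09 for Cox17 and -0.07 for the brighter of those of Cox16, neither past the threshold. Cox10 and Cox15, which make haem A, differed by -0.51 and -0.67. The copper factors Cox11 and Cox19 differed by -0.38 and -0.63, and Cox18, which inserts a subunit into the membrane, by -0.62. Cox20 averaged 416 ± 2.29 on the knockout arrays and 405 ± 15.5 on the wild-type arrays (SD, n = 3 each) and did not pass.

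Cox7a1 had the largest difference of all 102 genes. It encodes the isoform of Cox7a known from heart and skeletal muscle, and its signals were 5.36, 4.47 and 4.70 on the knockout arrays, against 153, 151 and 179 on the wild-type arrays. On the knockout arrays it lay near the lowest signals of the array. The log2 difference was -3.08 ± 0.08 (SE, n = 3 each; adjusted p = 7.35e-12), which understates a ratio at such low signals because 16 was added. Cox6a2, a further muscle isoform, averaged 35.1 ± 7.52 on the knockout arrays and 73.2 ± 8.08 on the wild-type arrays (SD, n = 3 each), a difference of -0.81 ± 0.11 (SE, n = 3 each; adjusted p = 3.31e-05). Cox8c, known from testis, averaged 44.0 ± 9.18 on the knockout arrays and 60.6 ± 0.678 on the wild-type arrays (SD, n = 3 each), a difference of -0.36. Cox8b was lower at signals under 10, and Cox4i2, Cox6b2 and Cox7b2 did not pass. Markers of skeletal muscle were also measured: of 5, 2 were lower, and their summed signal was 50.7 to 59.8 on the knockout arrays and 87.4 to 103.4 on the wild-type arrays. Most of that sum was Des, with 40.7 on the knockout arrays and 78.1 on the wild-type arrays. The defining factors were near the floor in both groups, with Myod1 at 3.48 and Myog at 4.57 on the knockout arrays, against 4.05 for Myod1 and 5.60 for Myog on the wild-type arrays; the part of such cells in the result was not tested.

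Complex I, the NADH dehydrogenase, had 44 genes, of which 28 were lower, 11 higher and 5 did not pass, with a median of -0.18 in the deposited signals and 0.34 under poly-A spike scaling. Among the subunits that carry the electrons, Ndufv1, which holds the flavin where NADH binds, differed by -0.55, Ndufv2 by -0.17, and the iron-sulfur subunits Ndufs1, Ndufs7 and Ndufs8 by -0.35, -0.38 and -0.46, all lower in the deposited signals. None of them stayed lower past the threshold under poly-A spike scaling. There Ndufv1 was -0.04, Ndufs1 0.16, Ndufs7 0.13 and Ndufs8 0.05 without passing, and Ndufv2 was called higher (0.34). Ndufs3, also of this core, averaged 985 ± 18.0 on the knockout arrays and 983 ± 23.8 on the wild-type arrays (SD, n = 3 each) and did not pass. Ndufa9, which lies near the coenzyme Q site, had signals of 703, 709 and 699.5 on the knockout arrays, against 1339.5, 1406 and 1302 on the wild-type arrays. Its knockout values were lower without overlap, with a difference of -0.92 ± 0.04 (SE, n = 3 each; adjusted p = 5.4e-10). Ndufb2, Ndufa5, Ndufa6, Ndufb7 and Ndufa13 were lower, with differences of -0.88, -0.69, -0.68, -0.66 and -0.63. Of these only Ndufb2 kept its call under poly-A spike scaling (-0.38). Ndufb8, a subunit of the membrane arm, had signals of 671, 725 and 702 on the knockout arrays, against 1572, 1523 and 1482 on the wild-type arrays on the probe set that represents it. That is a difference of -1.11 ± 0.04 (SE, n = 3 each; adjusted p = 1.64e-10), and its other probe set disagreed, as given below.

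Of the 35 complex I subunits, 7 were higher. Ndufc1, a small subunit of the membrane arm, had signals of 2427, 2692 and 2690.5 on the knockout arrays, against 1706, 1670.2 and 1695 on the wild-type arrays. Its groups were well apart, with a difference of 0.62 ± 0.05 (SE, n = 3 each; adjusted p = 9.23e-08). The others were smaller: Ndufa8 differed by 0.36, Ndufa2 by 0.31, Ndufb5 by 0.27 and Ndufa1 by 0.18. Under hybridization spike scaling these were 0.10, 0.05, 0.01 and -0.08, and none of them passed. A second bright probe set of Ndufb5 gave 0.06 in the deposited signals and did not pass. Ndufa3 had 2113, 2184 and 2208 on the knockout arrays, against 1694, 1773 and 1763 on the wild-type arrays, a difference of 0.31 ± 0.04 (SE, n = 3 each; adjusted p = 1.16e-05), and a bright second probe set gave 0.29; under hybridization spike scaling it was 0.05 and did not pass. The remaining call, Ndufb4, came from a probe set with signals under 10, and its brighter probe sets are shared with near-identical copies and were left out of the counts.

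Assembly factors of complex I were divided, with 4 of 8 higher and 3 lower in the deposited signals, 5 higher and 1 lower under poly-A spike scaling, and 3 higher and 4 lower under hybridization spike scaling. Ndufaf2, a late assembly factor, had signals of 186, 188 and 197 on the knockout arrays, against 136, 132 and 138 on the wild-type arrays. It was higher by 0.45 ± 0.05 (SE, n = 3 each; adjusted p = 8.38e-06), but a difference of 0.03 remained when chromosomes were centred. Ndufaf8, which steadies Ndufaf5, had 518, 502 and 514 on the knockout arrays, against 376, 365 and 385 on the wild-type arrays. The knockout arrays were again above, with 0.43 ± 0.04 (SE, n = 3 each; adjusted p = 1.03e-06). Ndufaf5 itself, which modifies Ndufs7, differed by -0.41, so the 2 partners had opposite signs in the deposited signals. Under poly-A spike scaling they did not: Ndufaf5 was 0.02 and did not pass, and Ndufaf8 was 0.93. Ndufaf6, an early assembly factor, had signals of 47.3, 43.7 and 50.9 on the knockout arrays, against 109, 115 and 123 on the wild-type arrays. All were lower on the knockout arrays, with a difference of -1.06 ± 0.08 (SE, n = 3 each; adjusted p = 7.18e-08). Ndufaf3 and Ndufaf1 differed by 0.41 and 0.13, Ndufaf7 by -0.34, and Ndufaf4 did not pass. Ndufaf7 turned to 0.13 under poly-A spike scaling and Ndufaf1 to -0.12 under hybridization spike scaling, neither past the threshold.

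In the deposited signals the ATP synthase was the most evenly divided complex, with 8 of 17 genes lower (47.1%), 7 higher (41.2%) and 2 not past the threshold. All 17 are bright, and these shares are near the 48.1% lower and 37.7% higher of all genes with a signal of at least 50. Under poly-A spike scaling 13 were higher and 1 lower, and under hybridization spike scaling 1 was higher and 10 lower. It had a median of -0.10, against 0.42 when scaled on the poly-A spikes and 0.00453 with x, s and a probe sets dropped, the kinds whose suffix marks that they may read related transcripts. In the catalytic head, the differences were -0.24 for Atp5a1 (alpha), but 0.27 under poly-A spike scaling, and 0.13 for Atp5b (beta). Atp5b was -0.13 under hybridization spike scaling and did not pass. In the rotor stalk, Atp5c1 (gamma) had signals of 3187, 3296 and 3155 on the knockout arrays, against 4174, 4161 and 4256 on the wild-type arrays. The knockout arrays were lower, with a difference of -0.38 ± 0.04 (SE, n = 3 each; adjusted p = 1.47e-06), a direction that turned to 0.13 when scaled on the poly-A spikes and to 0.11 with x, s and a probe sets dropped. Atp5e (epsilon) had 1606, 1555 and 1598 on the knockout arrays, against 1265, 1215 and 1273 on the wild-type arrays. It went the other way, with 0.34 ± 0.04 (SE, n = 3 each; adjusted p = 4.47e-06), and did not pass under hybridization spike scaling (0.08). Atp5d (delta) averaged 4216 ± 173 on the knockout arrays and 4503 ± 81.8 on the wild-type arrays (SD, n = 3 each) and did not pass.

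Subunits of the peripheral stalk, which holds the head still, also differed in direction. Atp5o, the oligomycin sensitivity protein at its top, had signals of 996, 1005 and 1024 on the knockout arrays, against 1771, 1800.0 and 1791 on the wild-type arrays. It was the lowest of the complex, with -0.82 ± 0.04 (SE, n = 3 each; adjusted p = 5.54e-10). Atp5h, another stalk subunit, had 3846, 3784 and 3942 on the knockout arrays, against 2729.9, 2791 and 2864 on the wild-type arrays. This gene was higher without overlap, with 0.46 ± 0.04 (SE, n = 3 each; adjusted p = 2.96e-07). Atp5pb, the b subunit, differed by -0.34 and Atp5j by 0.13. Atp5pb turned to 0.18 under poly-A spike scaling and Atp5j to -0.13 under hybridization spike scaling, neither past the threshold. The ring of c subunits is encoded by 3 genes. Atp5g1 had signals of 858, 814 and 879.6 on the knockout arrays, against 731, 691 and 677 on the wild-type arrays, a difference of 0.28 ± 0.04 (SE, n = 3 each; adjusted p = 0.000136) that did not pass under hybridization spike scaling (0.02) or with chromosomes centred (0.06). Atp5g3 differed by 0.15, also higher, and Atp5g2 by -0.23, lower. Atp5g3 turned to -0.11 under hybridization spike scaling without passing, and Atp5g2 to 0.28 under poly-A spike scaling. Of the membrane subunits, Atp5j2 had 2189, 2223 and 2174 on the knockout arrays, against 2990.3, 3093 and 3036 on the wild-type arrays, a difference of -0.47 ± 0.04 (SE, n = 3 each; adjusted p = 1.49e-07) that turned to 0.05 under poly-A spike scaling, and Atp5l differed by 0.23. Atp5l was -0.04 under hybridization spike scaling and did not pass.

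The mean level per array was also taken over the subunits of each complex with a signal of at least 50. On the log2 scale complex I averaged 10.2 ± 0.04 on the knockout arrays and 10.5 ± 0.001 on the wild-type arrays over 34 subunits, a difference of -0.29 (SD, n = 3 each here and below). Complex II averaged 9.55 ± 0.03 on the knockout arrays and 9.93 ± 0.03 on the wild-type arrays over its 4 subunits, a difference of -0.38 in which Sdha and the others oppose each other. Complex III averaged 10.7 ± 0.02 on the knockout arrays and 10.96 ± 0.02 on the wild-type arrays over 8 subunits, a difference of -0.26. Complex IV averaged 11.1 ± 0.01 on the knockout arrays and 11.3 ± 0.02 on the wild-type arrays over 10 subunits, a difference of -0.16. That mean includes Cox7c, whose dim probe set may read other genes too and differed by 1.27. The median difference of the same 10 subunits was -0.37. The ATP synthase averaged 11.0 ± 0.01 on the knockout arrays and 11.1 ± 0.004 on the wild-type arrays over 17 subunits, a difference of -0.07. In each complex the 3 knockout arrays lay below the 3 wild-type arrays in the deposited signals.

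**Figure D3:**
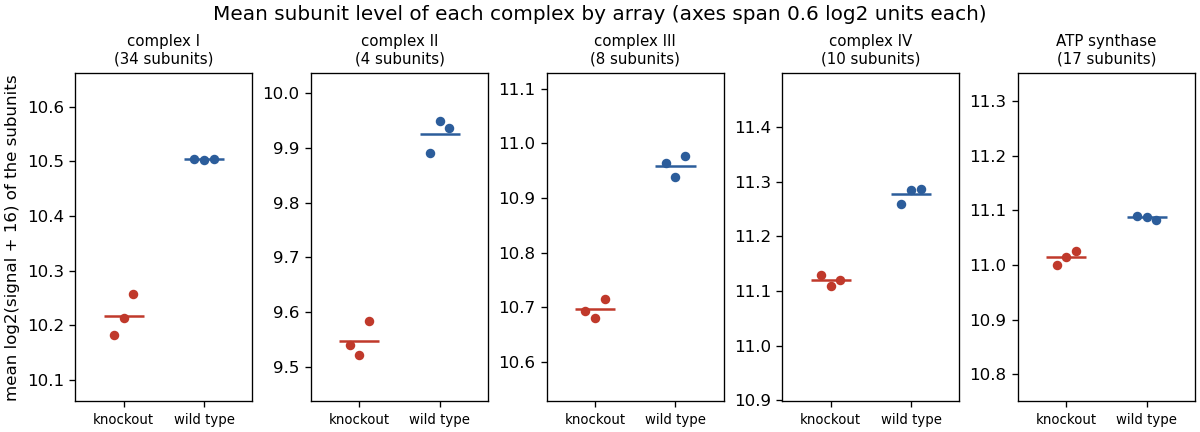
Mean log2(signal + 16) of the subunits of each complex on each array (points) and the group means (lines), knockout arrays left and wild-type arrays right; the axes differ in position but each spans 0.6 log2 units. The groups do not overlap in any of the complexes in the deposited signals, and the gap is widest for complex II (-0.38) and narrowest for the ATP synthase (-0.07). The gap of complex IV is narrowed by the dim probe set of Cox7c, which differed by 1.27.

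More than 1 probe set read 59 of the genes, and for 11 of these a pair of probe sets was called in opposite directions. Of the 46 genes with at least 2 probe sets of signal 50 or more, 38 had all such probe sets of one sign, and the median gap between the highest and lowest difference was 0.12. In 5 genes bright probe sets were called in opposite directions: Atp5a1, Ndufa10, Ndufa12, Ndufb8 and Ndufs4. The widest gap, 2.27, was that of Ndufb8, whose second probe set averaged 140.3 on the knockout arrays and 53.5 on the wild-type arrays, a difference of 1.16. Which of these probe sets follows the full-length RNA was not tested.

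For Ndufa12, an accessory subunit at the matrix arm, the representing probe set had signals of 1596, 1408 and 1474 on the knockout arrays, against 1702, 1743 and 1574 on the wild-type arrays. The groups overlapped, with a difference of -0.16 ± 0.05 (SE, n = 3 each; adjusted p = 0.0179) that did not pass in 4 of the 6 fits without 1 array. Another of its probe sets averaged 1845 on the knockout arrays and 1199 on the wild-type arrays, a difference of 0.62, and one more 945 on the knockout arrays and 1146 on the wild-type arrays, a difference of -0.27, so no direction is given for this gene. Ndufs4, an accessory subunit of the NADH-binding module, had 721, 716 and 729 on the knockout arrays, against 743, 741 and 781 on the wild-type arrays. It did not pass in the deposited signals (difference -0.06, adjusted p = 0.182), was called higher under poly-A spike scaling (0.44), and was called lower with arrays centred on their median (-0.11), under hybridization spike scaling (-0.32) and with chromosomes centred (-0.48). Its dimmer probe sets were called both ways, with 0.46 and -0.35. Ndufa10, of the membrane arm, had 1381, 1412 and 1482 on the knockout arrays, against 1539, 1549.9 and 1565 on the wild-type arrays. The difference was -0.12 ± 0.04 (SE, n = 3 each; adjusted p = 0.0163) and did not pass without knockout replicate 1 or 2 or with chromosomes centred (-0.039); it turned to 0.39 under poly-A spike scaling. Its other bright probe set averaged 50.9 on the knockout arrays and 33.6 on the wild-type arrays, a difference of 0.43. Atp5a1 had 2244, 2346 and 2464 on the knockout arrays, against 2769, 2781 and 2809 on the wild-type arrays. Its difference was -0.24 ± 0.04 (SE, n = 3 each; adjusted p = 0.000222), and a second bright probe set gave 0.16.

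In the other 6 genes the opposing probe set had a signal under 50. Ndufab1, the mitochondrial acyl carrier protein, had signals of 1225, 1357 and 1318 on the knockout arrays, against 2294, 2323 and 2302 on the wild-type arrays. It was lower, with -0.82 ± 0.04 (SE, n = 3 each; adjusted p = 3.47e-09), and gave -0.58 on its second bright probe set; averaging all its probe sets, dim ones included, turned the value to 0.11. Ndufb9, of the membrane arm, had 2489, 2574 and 2550.0 on the knockout arrays, against 3838, 3908 and 3884 on the wild-type arrays. This gave -0.61 ± 0.04 (SE, n = 3 each; adjusted p = 1.24e-08), with -0.64 on another bright probe set, and did not pass under poly-A spike scaling (-0.09). Cox8a, a small subunit of the oxidase, had 1297, 1188 and 1274 on the knockout arrays, against 1673, 1676 and 1668 on the wild-type arrays, a difference of -0.41 ± 0.04 (SE, n = 3 each; adjusted p = 1.65e-06) that turned to 0.10 under poly-A spike scaling. Atp5g2 had 2340.5, 2434 and 2553 on the knockout arrays, against 2731, 2843 and 3033 on the wild-type arrays. Its difference of -0.23 ± 0.05 (SE, n = 3 each; adjusted p = 0.00112) turned to 0.28 under poly-A spike scaling. Atp5j2 and Ndufa3, given above, complete the 6.

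The sign of the median over the chain depended on the scaling. Bacterial poly-A RNAs, which are added to total RNA before labelling in this array system, gave a mean log2 signal of 6.93 ± 0.09 on the knockout arrays and 7.45 ± 0.13 on the wild-type arrays over 24 probe sets; the labelled hybridization controls gave 10.6 ± 0.08 on the knockout arrays and 10.3 ± 0.07 on the wild-type arrays over 18 (SD, n = 3 each). Scaled on the poly-A controls, 48 chain genes were higher and 13 lower, and the median was 0.15, where the median of all genes was 0.12. Of the 89 called chain genes 37 kept call and direction there and 12 were called the other way. Scaled on the hybridization controls, 10 were higher and 74 lower, with a median of -0.50, where all genes had -0.12. Of all called genes 40.6% were higher in the deposited signals, 29.4% after median centring, 78.7% under poly-A scaling and 22.1% under hybridization scaling. Median centring and spike scaling shift all bright genes of an array by nearly the same log amount. The position of the chain among such genes could therefore hardly move under them, and its stability there is no sign of robustness. Among genes with a signal of at least 50 the chain's median minus that of all such genes was -0.23 in the deposited signals, -0.24 under quantile scaling, -0.23 under median centring, -0.20 under poly-A and -0.22 under hybridization scaling. Centring chromosomes gave -0.14, averaging each gene's probe sets gave -0.13, and dropping x, s and a probe sets gave -0.09.

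**Figure D4:**
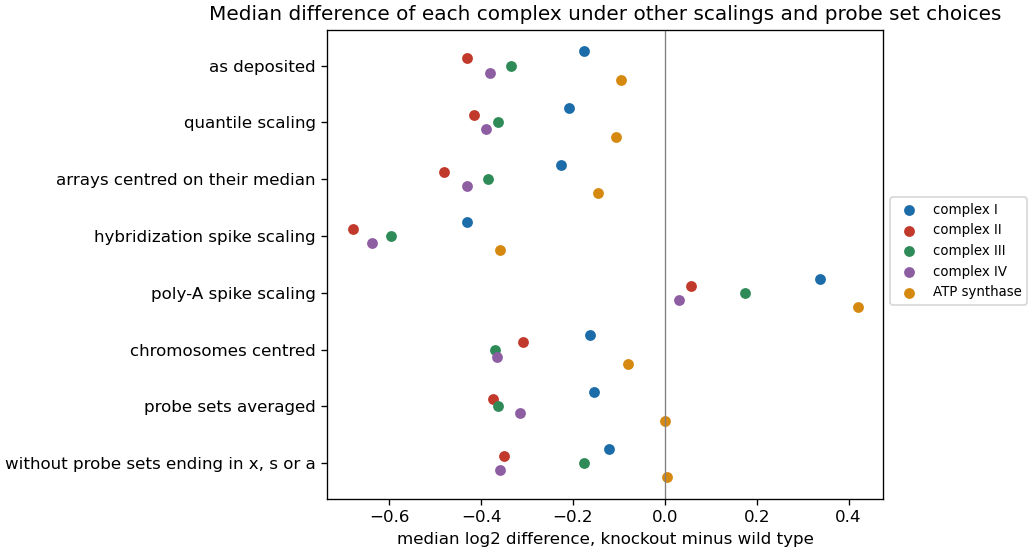
Median log2 difference, knockout minus wild type, of each complex (colours) in the deposited signals and under 7 other scalings or probe set choices (rows). All 5 medians lie below 0 except under poly-A spike scaling, where all lie above it, and for the ATP synthase when its probe sets are averaged or the x, s and a kinds dropped, where it lies at about 0.

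The genes of the chain lie on many chromosomes, and whole chromosomes differed between the groups. Medians of the 6548 bright genes outside the chain, those with a mean log2 signal above 7, ran from -0.73 on chromosome 4 to 0.34 on chromosome 13. Over 87 chain genes on 19 chromosomes, the gene's difference and the median of the other genes on its chromosome correlated with a Pearson r of 0.46 and a Spearman rho of 0.46, given as a description, since genes of a chromosome share its median and all share the 6 arrays. On chromosome 4 lie Sdhb, Uqcrh, Ndufb6, Ndufs5 and Ndufaf4, with a median of -0.56; 4 of these 5 were lower. Sdha lies on chromosome 13, with Ndufaf2, Ndufs4, Uqcrb and Uqcrfs1, and their median was 0.14. On chromosome 6 all 4 chain genes, Ndufa4, Ndufa5, Ndufa9 and Ndufb2, were lower with a median of -0.78, where the other genes had -0.28. On chromosome 8 Cox4i1, Ndufa13 and Ndufb7 had a median of -0.63 and the other genes -0.49.

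Taking off the chromosome's median left most of the spread. The SD over the 87 genes was 0.45 before and 0.40 after, and the median -0.24 before and -0.14 after; 60 genes were below 0 and 52 below their chromosome's median. Sdhb lay -0.43 from the median of chromosome 4, Sdha 0.50 from that of chromosome 13 and Uqcr10 -0.87 from that of chromosome 11. Uqcrh lay 0.07 from the median of chromosome 4. In a fit with chromosomes centred, 72 of the 89 called chain genes kept call and direction and 3 were called the other way.

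**Figure D5:**
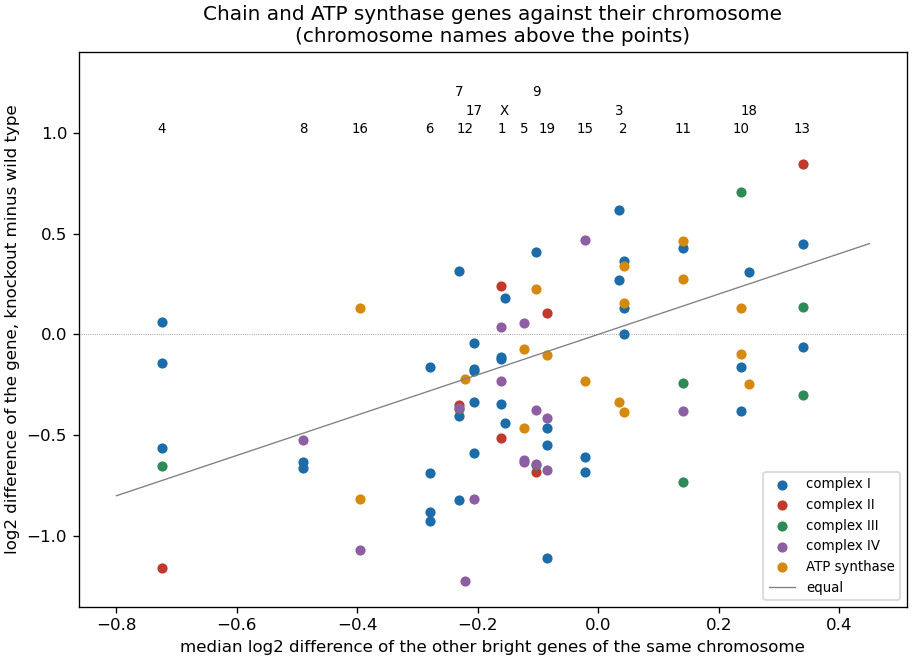
Each point is 1 of 87 chain genes; the horizontal axis is the median log2 difference (knockout minus wild type) of the other bright genes on its chromosome, named above, and the vertical axis is the gene's own difference, with colours for the complexes and a line of equality. Genes on chromosome 4 (-0.73) lie mostly low and 3 of the 5 on chromosome 13 (0.34) were higher, with a wide spread at each chromosome (r = 0.46, no test).

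Genes around the chain were read from 6 further lists. Of the electron carriers and other partners 11 of 13 were lower and 2 higher, with a median of -0.48. Cycs, cytochrome c, differed by -1.04 and Cyc1, the cytochrome of complex III, by -0.54. Etfa, which brings electrons from fatty acid oxidation, had signals of 613, 643 and 640.1 on the knockout arrays, against 2003, 2029 and 2092 on the wild-type arrays, with a difference of -1.67 ± 0.04 (SE, n = 3 each; adjusted p = 2.12e-12). Atpif1, the inhibitor of ATP synthase running backwards, had 401, 432 and 421 on the knockout arrays, against 1225, 1267 and 1188 on the wild-type arrays. It was lower as well, with a difference of -1.52 ± 0.04 (SE, n = 3 each; adjusted p = 1.19e-11). So was Aifm1, needed for the import of some chain subunits, with -1.22. Sqor, which feeds electrons from sulfide to coenzyme Q, had the opposite pattern, with 608, 608 and 634 on the knockout arrays, against 5.66, 12.6 and 6.06 on the wild-type arrays. Its difference was 4.73 ± 0.10 (SE, n = 3 each; adjusted p = 7.51e-13). Slc25a3, the phosphate carrier, was higher by 0.36, and the ADP/ATP carriers Slc25a4 and Slc25a5 differed by -0.36 and -0.48.

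Of 17 genes of the TCA cycle and its entry 12 were lower and 4 higher, with a median of -0.54. Pdk1, the kinase that restrains pyruvate dehydrogenase, had the largest difference, -1.86 ± 0.06 (SE, n = 3 each; adjusted p = 6.42e-11), followed by Idh2 (-1.40), Idh3g (-1.14) and Dlat, a core subunit of pyruvate dehydrogenase (-1.10). Citrate synthase, Cs, was higher by 0.28 and Pdha1 by 0.43. Of 25 assembly factors outside the name rule 15 were lower and 8 higher, with a median of -0.17. Higd1a, which binds complexes III and IV, differed by -1.67 ± 0.04 (SE, n = 3 each; adjusted p = 3.7e-12), Atpaf1, an assembly factor of the ATP synthase head, by -1.20 and Ecsit, of complex I, by -1.05. Sco2, a copper factor of the oxidase, had signals of 227, 228 and 271 on the knockout arrays, against 77.2, 71.5 and 68.2 on the wild-type arrays. It was higher, by 1.54 ± 0.07 (SE, n = 3 each; adjusted p = 1.65e-09), in contrast to Cox17, Cox11 and Cox19. Its probe set has a name ending in s and may read RNA of other genes too. In the same list Coa6 was also higher, by 0.64, and Sco1 did not pass (0.10).

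Of 12 genes for coenzyme Q synthesis 5 were lower and 3 higher, with a median of -0.13. Coq9 differed by -1.44, Coq3 by -1.37, Coq7 by -0.65 and Coq10a by 0.56. Of 17 regulators of mitochondrial gene expression 9 were lower and 5 higher, with a median of -0.28. Gabpa, the ETS subunit of GABP, had signals of 388, 435 and 357 on the knockout arrays, against 780.0, 809 and 681 on the wild-type arrays, a difference of -0.92 ± 0.07 (SE, n = 3 each; adjusted p = 2.31e-07). Nrf1 had 47.3, 49.4 and 48.8 on the knockout arrays, against 79.1, 77.1 and 80.0 on the wild-type arrays, a difference of -0.55. Tfam, which packs mitochondrial DNA, was higher by 0.37, Tfb2m, a transcription factor of mitochondrial DNA, was higher by 0.73, and its relative Tfb1m was lower, with -0.77 ± 0.07 (SE, n = 3 each; adjusted p = 9.91e-07). Polg, the mitochondrial DNA polymerase, differed by -1.03. Of 18 genes of the outer membrane, protein import and inner membrane shape 11 were lower and 4 higher, with a median of -0.28: Vdac3 differed by -1.22, Tomm20 by -0.94, Chchd3 by -0.80 and Timm50 by -0.78, while Vdac2 was higher by 0.36. Scaled on the poly-A spikes, the medians of these lists were 0.04 for the partners, -0.03 for the TCA cycle, 0.30 for the assembly factors, 0.25 for coenzyme Q synthesis, 0.20 for the regulators and 0.23 for the outer membrane and import, so most directions turned; 5 of 13 partners and 8 of 17 TCA cycle genes were still lower. Over all genes 35.5% were lower and 24.3% higher in the deposited signals, with a median of -0.03. Most genes of these lists are bright, and all genes with a signal of at least 50 gave 48.1% lower and 37.7% higher, median -0.11. Among such genes coenzyme Q synthesis had 45.5% lower and a median of -0.11, no excess of lower genes. The shares lower were 56.25% for the regulators, 56.5% for the assembly factors and 61.1% for the outer membrane and import. They were 70.6% for the TCA cycle and 84.6% for the partners. These shares were not tested against the background.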

How the data were processed

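Affymetrix arrays of 6 samples, 3 knockout and 3 wild type, were read as the authors' deposited linear intensity per probe set. The submitters' processing notes name MAS5, and neither its version nor a scaling target is given in the sources used here. The lowest and highest median signals of an array were 13.4 and 14.7, and the number of arrays limits the precision. Of 45101 probe sets, 64 controls, 932 with several symbols and 9160 unnamed were left out, giving 18193 genes, each from its probe set with the highest mean. Signals were transformed as log2(signal + 16) and fitted with limma (3.58.1; R 4.3.3), using lmFit and eBayes with a trend; two-sided p-values were adjusted over all genes by Benjamini-Hochberg; the fit was tested on simulated data. Genes and lists were chosen with earlier results of these data known, and the motifs with the sequences in view. Array values are given for up to 3 rises and 3 falls per complex (adjusted p under 0.05, no overlap, signal over 100) and for genes whose probe sets disagree, and up to 4 genes are named by size per further list; others are named after their values were seen. Alternatives were other offsets (1 and 64), scalings, probe set choices, eBayes settings, a replicate block, centred chromosomes and leaving out each array. Promoters came from RefSeq (GRCm38.p6). Figures used matplotlib 3.10.9.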

Additional observations from a re-analysis of the deposited data

How the results depend on the processing

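Of the 89 called chain genes, all kept call and direction with offsets of 1 and 64 and with the replicate block, 88 under quantile scaling and robust eBayes, 87 without trend, 85 with arrays centred on their median, 86 of 86 with dim genes left out, 80 with probe sets averaged, 65 of 73 with x, s and a probe sets dropped, 75 under hybridization spike scaling, 72 with chromosomes centred, 37 under poly-A spike scaling (12 called the other way) and 81 to 86 without 1 array. The main fit did not pair the samples by replicate number. Deviations of same-numbered arrays correlated at 0.07, 0.25 and 0.29, and each array correlated best with its own number, a hint from the data only. Whether same-numbered arrays were processed together is not given and was not tested. With the block 24 genes were higher and 66 lower. Chain genes higher numbered 48 when scaled on poly-A spikes and 10 on hybridization spikes (24 in the deposited signals), and lower 13 under poly-A scaling (65). The median of -0.26 was -0.34 with offset 1, -0.23 with offset 64, -0.30 under quantile scaling, -0.31 with arrays centred, 0.15 under poly-A and -0.50 under hybridization scaling, -0.34 with dim genes left out, -0.19 with probe sets averaged, -0.12 with x, s and a probe sets dropped, -0.21 with chromosomes centred and -0.29 to -0.24 without 1 array. Under poly-A scaling the counts higher and lower were 23 and 5 in complex I, 6 and 5 in complex IV and 13 and 1 in the ATP synthase, with 2 lower in complex II and 0 in complex III, and the medians were 0.34, 0.057, 0.17, 0.032 and 0.42 for complexes I to IV and the ATP synthase. Under hybridization scaling 5, 1, 1 and 1 genes were higher in complexes I, II and III and the ATP synthase. With chromosomes centred 1, 4 and 4 were higher in complexes III and IV and the ATP synthase; 1 was higher in complex III with arrays centred and 1 to 2 without 1 array. With x, s and a probe sets dropped 3 were lower in complex III, and the ATP synthase median was 0.00453. Turned signs are listed here only for the chain genes whose values on each array are given above. Under poly-A scaling these were Atp5j2 (0.048), Atp5c1 (0.13), Atp5a1 (0.27), Atp5g2 (0.28), Cox8a (0.10), Ndufa10 (0.39), Ndufa12 (0.35) and Ndufs4 (0.44). Other chain genes turned there too, among them Ndufb3 (0.40) and Ndufv2 (0.34). Under hybridization scaling Sdhaf4 (-0.015) and Uqcrb (-0.13) turned, and with chromosomes centred Uqcrb (-0.28). With probe sets averaged Ndufb8 (0.028), Atp5g2 (0.075), Ndufa10 (0.16), Ndufa12 (0.073), Ndufs4 (0.019) and Ndufab1 (0.11) turned. With x, s and a probe sets dropped Ndufb8 (1.16), Cox17 (0.086), Atp5c1 (0.11) and Ndufa12 (0.11) did. The last setting tests fewer genes and reads Cox17 from a probe set near the floor; the cause of the other shifts was not tested. Of 662 differences of named genes under an alternative, 614 kept their sign and their side of the threshold, 24 kept the sign and lost the call, 3 kept it and gained one, and 21 changed sign, of which 11 lost the call, 8 were called the other way, 1 gained a call and 1 was not called in either. Low signal limits Cox7c, the restricted isoforms and the dim probe sets.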

Other observations

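Probe sets that list several genes were left out of the counts, and 11 of them name a gene of the chain with a copy or neighbour. Signals of such copies cannot be told apart, so these values belong to the family. The probe set of Ndufs5 and its pseudogene copy averaged 565 ± 33.9 on the knockout arrays and 1203 ± 36.5 on the wild-type arrays (SD, n = 3 each). The log2 difference was -1.07 (limma over all probe sets, adjusted p = 1.01e-09), where the single-gene probe set of Ndufs5 gave -0.14. A probe set of Ndufab1 and its pseudogene copy averaged 549.8 ± 22.6 on the knockout arrays and 1069 ± 80.2 on the wild-type arrays, a difference of -0.94, beside -0.82 for the single-gene probe set. The Ndufb4 family was read by a pair of bright probe sets, with differences of -0.43 and -0.31, where the single-gene probe set of Ndufb4 had signals under 10. Ndufa11 and its copy averaged 709 ± 20.1 on the knockout arrays and 849.99 ± 14.2 on the wild-type arrays, a difference of -0.26, and the probe set of Cox14, an assembly factor of complex IV, with a predicted gene gave -0.18. The probe set of Ndufs6, an accessory subunit near the NADH-binding module, and its copy was higher, with 824 ± 38.9 on the knockout arrays and 629 ± 30.2 on the wild-type arrays, a difference of 0.38. The other 4 had signals under 50 in both groups.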
